A study of Mus musculus with 10 samples.

Results

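Notch signalling was followed through 10 genes in leukemic mouse spleens. They are the receptors Notch1, Notch2 and Notch3, the noncoding gene 0610009E02Rik at the end of Notch1, the nuclear partners Rbpj and Maml1, and the target genes Hes1, Dtx1, Nrarp and Heyl. The rows were found by gene symbol, all 10 of 10 among the 16865 genes of the table, and all 10 passed the filter on low values. The list was chosen by gene symbol with the normalized counts and group differences of these same libraries known. The differences of its 10 genes are therefore given as a description, with no test.

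The Sirt1 deleted group held 5 spleens from mice that had received 3 mg of tamoxifen in corn oil by intraperitoneal injection. The control group held 5 spleens from mice that had received corn oil alone. All 10 samples are labelled C57BL/6, and all 10 leukemias were T cell acute lymphoblastic leukemias (T-ALL) carrying a conditional allele of Sirt1, a NAD-dependent protein deacetylase, grown in recipients irradiated below the lethal dose. Tamoxifen and deletion came together, so their effects cannot be told apart. The Cre driver, the ages and the leukemia that each recipient carried are not given in the sources used here. Nothing says that the 5 samples of a group are separate leukemias, so p-values measure only the spread between these samples, which may be technical.

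Notch receptors are cut at the cell surface and then inside the membrane by gamma-secretase after binding a ligand on a neighbouring cell. The freed intracellular part enters the nucleus, binds the DNA-binding protein RBPJ together with a Mastermind-like coactivator such as MAML1, and switches on genes that include Hes1, Dtx1, Nrarp and Heyl. The pathway drives early T cell development, and activating NOTCH1 mutations are among the most frequent lesions of T-ALL.

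The start regions of 4 of the genes are shown as the 250 bases before the annotated start, from RefSeq on GRCm38.p6. They are the noncoding transcript with the widest difference between the groups, the receptors Notch1 and Notch3, whose levels moved together between libraries, and Rbpj, whose values did not overlap between the groups. RefSeq and the GENCODE annotation used for positions differ in some starts. The window of 0610009E02Rik lies almost wholly inside its longest GENCODE transcript. Those of Notch1 and Rbpj lie inside the longer GENCODE genes, away from the first GENCODE start. Capitals mark the RBPJ core letters TGGGAA or, read on the other strand, TTCCCA.

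0610009E02Rik, chr2:26445674-26445923, plus strand: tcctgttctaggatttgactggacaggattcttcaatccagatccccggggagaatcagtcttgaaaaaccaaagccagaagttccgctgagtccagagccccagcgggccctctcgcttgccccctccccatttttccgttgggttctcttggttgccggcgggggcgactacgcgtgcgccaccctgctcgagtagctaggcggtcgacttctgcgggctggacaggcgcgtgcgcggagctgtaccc
Notch1, chr2:26503823-26504072, minus strand: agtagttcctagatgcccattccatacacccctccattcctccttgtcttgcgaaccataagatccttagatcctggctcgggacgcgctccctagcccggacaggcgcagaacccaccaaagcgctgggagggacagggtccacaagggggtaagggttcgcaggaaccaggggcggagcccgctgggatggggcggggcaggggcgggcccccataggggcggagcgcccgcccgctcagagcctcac
Notch3, chr17:32166891-32167140, minus strand: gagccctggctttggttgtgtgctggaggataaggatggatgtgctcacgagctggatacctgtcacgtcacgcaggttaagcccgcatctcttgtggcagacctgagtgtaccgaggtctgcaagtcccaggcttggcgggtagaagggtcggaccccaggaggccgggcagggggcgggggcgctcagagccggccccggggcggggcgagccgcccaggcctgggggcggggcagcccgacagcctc
Rbpj, chr5:53590096-53590345, plus strand: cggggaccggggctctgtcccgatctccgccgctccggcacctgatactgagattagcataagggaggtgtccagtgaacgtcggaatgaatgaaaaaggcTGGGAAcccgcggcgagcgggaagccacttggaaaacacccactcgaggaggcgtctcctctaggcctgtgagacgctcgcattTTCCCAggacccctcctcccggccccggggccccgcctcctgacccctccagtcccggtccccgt

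Windows were found for 8 of the 10 genes, and the table used has none for Hes1 and Heyl. Of these 8, Rbpj alone held the core letters, 149 and 65 bases before the first of its RefSeq starts. The letters TGGGAA stood on either strand in 21.6% of all 32851 windows of the same length, and the longer forms TGTGGGAA and CGTGGGAA in 1.46% and 0.636%. A match is a run of letters and not a measured binding site.

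Measured per library, the normalized counts summed to 34.1 to 34.8 M in the Sirt1 deleted group and 33.6 to 34.3 M in the control group. Spacing of the low values, taken as the worth of 1 read, gave a depth near 21.2 to 39.0 M reads in the Sirt1 deleted group and 28.4 to 44.3 M in the control group. Sirt1 itself was lower in the Sirt1 deleted group at 918 ± 155 normalized counts, against 1233 ± 97.6 in the control group (SD, n = 5 each), a log2 difference of -0.44 (exact permutation p = 0.00794, two-sided, the smallest that 5 against 5 allows). With the length trend described next as a covariate, that difference was -0.01 (SE 0.111). Length slopes were taken over all genes from the log2 deviation of a library from the mean of the 10 libraries. They were -0.0805 ± 0.0729 per doubling of transcript length in the Sirt1 deleted group and 0.0805 ± 0.0497 in the control group (SD, n = 5 each, exact permutation p = 0.00794). Because the mean is shared, the group averages are equal and opposite by construction, and only their difference carries information. Long transcripts therefore tended to be lower in the Sirt1 deleted libraries than in the control libraries, and 7 of the 10 genes have transcripts of 4035 bases or more. For the 10 genes, Sirt1, the genes around the locus and the called pathway genes that are named, a second value is given. In it the dependence on length and GC content was removed library by library. No second value is given for the markers of cell types, so their differences are as deposited. For Sirt1 the second value was -0.26 (SE 0.0699).

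T cell and thymocyte markers, 14 of 14 found, summed to 206101 to 235972 normalized counts in the Sirt1 deleted group and 206950 to 223774 in the control group. Of the 14, 2 rose, Cd3g and Cd2 (log2 differences 0.27 and 0.29), and 1 fell, Rag1 (-0.66, limma adjusted p = 0.00797). Over all tested genes 14.5% rose and 17.5% fell. Among other cell types, 10 B cell markers summed to 311 to 501 normalized counts in the Sirt1 deleted group and 251 to 338 in the control group. Macrophage markers, 10 of 10, summed to 3346 to 6520 in the Sirt1 deleted group and 7115 to 11173 in the control group, and these ranges do not overlap. Of the 10, 6 fell. Neutrophil markers, 10 of 10, summed to 2112 to 9329 in the Sirt1 deleted group and 1556 to 4532 in the control group, with a median log2 difference of 0.91, and 2 of 9 tested rose. Erythroid markers, 7 of 7, summed to 192710 to 432829 in the Sirt1 deleted group and 385682 to 483345 in the control group, with a median of -0.20 and a smallest limma adjusted p of 0.0653, for Hbb-bt. Dendritic cell markers, 6 of 7 in the table, summed to 171 to 241 in the Sirt1 deleted group and 209 to 251 in the control group, and 1 fell. In bulk tissue, fewer cells of a type and less RNA per cell cannot be told apart. The part of these other cells in the results was not tested.

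0610009E02Rik had the largest positive log2 difference of the 13567 genes tested. It is a noncoding gene of 3 annotated transcripts on the plus strand of chromosome 2 (26445696 to 26459390, GRCm38), running toward Notch1, which lies on the minus strand (26457903 to 26516663). Their annotated ends overlap by 1488 bases. Of the 1803 exonic bases of 0610009E02Rik, 1068 (59.2%) lie within the last exon of Notch1, all in its noncoding end and 0 in its coding sequence. They make up 11.3% of the 9488 bases of the main Notch1 transcript.

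**Figure D1:**
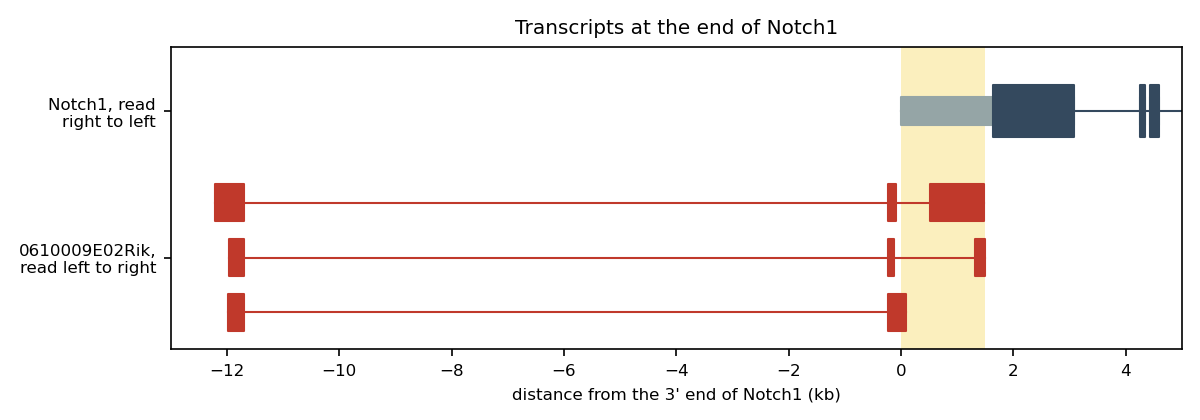
Annotated exons at the 3' end of Notch1, by distance in kilobases from that end. Tall blue blocks are Notch1 coding sequence and the grey block its noncoding end, red blocks are the exons of the 3 transcripts of 0610009E02Rik, and the yellow band is the 1488 bases where the genes overlap.

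Sirt1 deleted libraries 1 to 5 held 153, 616, 850.0, 346 and 2406 normalized counts of 0610009E02Rik. Control libraries 1 to 5 held 25.6, 36.0, 33.3, 29.4 and 41.6. Every Sirt1 deleted library lay above every control library, and library 5 of the Sirt1 deleted group was the highest. The means were 874 ± 896 in the Sirt1 deleted group and 33.2 ± 6.12 in the control group (SD, n = 5 each), and the medians were 616 in the Sirt1 deleted group and 33.3 in the control group. The log2 difference was 4.11 (SE 0.530), 3.96 after the correction and 3.60 without Sirt1 deleted library 5. Without the 3 libraries of steepest length slope it was 3.53. The Sirt1 deleted values rested on about 171 to 2450.0 reads a library, with a counting error of 2.02% to 7.64%. The control values rested on about 29.8 to 54.4 reads, with a counting error of 13.6% to 18.3%. These errors cover counting alone.

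The spread within the Sirt1 deleted group was wide, with a coefficient of variation of 102% against 18.4% in the control group. Relative to the Notch1 value of the same library, 0610009E02Rik stood at 0.234%, 1.11%, 1.69%, 0.617% and 5.49% in Sirt1 deleted libraries 1 to 5. In the control group it stood at 0.0375% to 0.0663%. Within the Sirt1 deleted group the order of 0610009E02Rik was the exact reverse of the order of Notch1. Library 5 was highest in the first and lowest in the second, and library 1 the other way round. The 5 control libraries showed no such order. In the Sirt1 deleted libraries Notch3, on chromosome 17, had the same order as Notch1, so the reversal was not particular to Notch1.

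**Figure D2:**
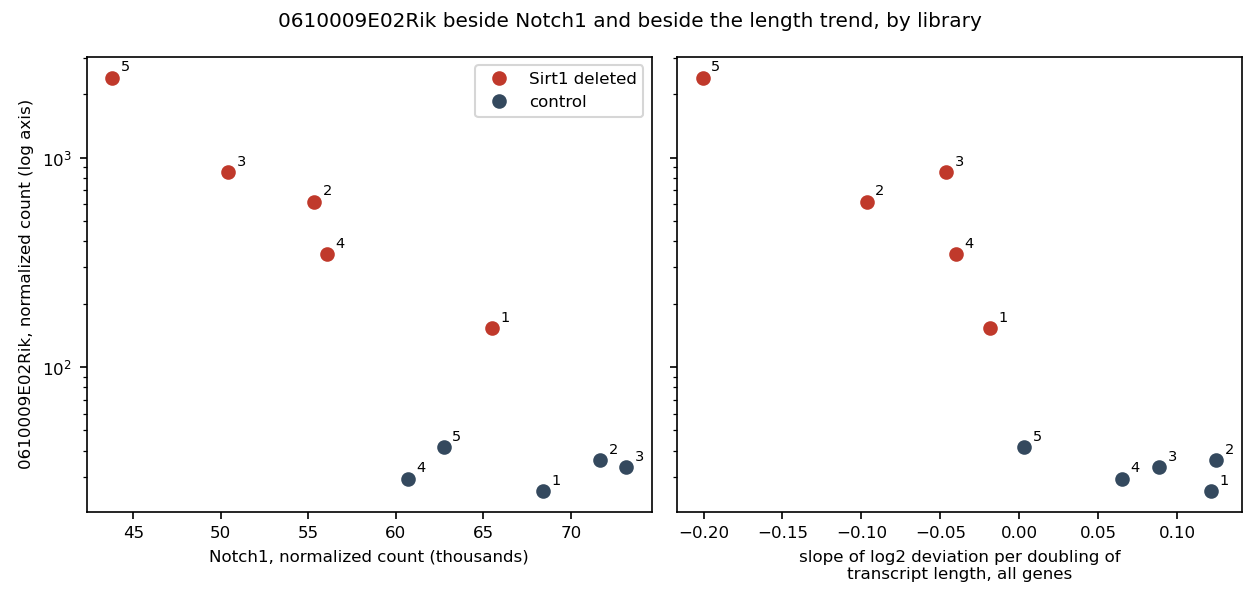
Normalized count of 0610009E02Rik (log axis) in each library, against that of Notch1 (left) and against the slope of log2 deviation per doubling of transcript length over all genes (right). Red points are the 5 Sirt1 deleted libraries and dark points the 5 control libraries, with replicate numbers. The red points run from 153 in library 1 to 2406 in library 5, and the dark points lie between 25.6 and 41.6.

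Within the Sirt1 deleted group, a steeper slope went with a higher 0610009E02Rik value in every pair of libraries except 2 and 3. Sirt1 deleted library 5 had the steepest slope of its group (-0.201) and the highest value, and library 1 had the least steep slope (-0.0187) and the lowest. Library 4 (slope -0.0404) came next above library 1 in both. Only libraries 2 and 3 changed places, since library 2 had the steeper slope (-0.0967, against -0.0462 in library 3) and the lower value. Control library 5, with a slope of 0.00318, held 41.6 normalized counts, against 153 in Sirt1 deleted library 1. With the slope of each library in the model the log2 difference was 2.002 (SE 0.604). The part of the trend in the result was not tested beyond these values. The libraries were strand-specific, but whether the counting used strand is not stated. Reads from the shared bases of Notch1 and 0610009E02Rik therefore cannot be told apart here.

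Other transcripts of this arrangement gave a background. Of 249 tested noncoding genes and pseudogenes with an exon over an exon of a protein-coding gene on the opposite strand, the group that holds 0610009E02Rik, 35 (14.1%) rose at a limma adjusted p of 0.05 and 6 (2.41%) fell, 16.5% in either direction. Over all tested genes 14.5% rose and 17.5% fell, 32.0% in all. The share that rose was near this background and the share that fell was below it. The groups did not overlap for 7.63% of the 249, split into 6.02% above and 1.61% below the controls, against 16.5% of all tested genes. Their median log2 difference was 0.17 as deposited and 0.10 after the correction, where both medians over all tested genes were 0.00. The next largest value in the group, as deposited, was 1.54, for Mir6385. Over all tested genes the next largest was 4.07, for Trpc2.

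The genes around the locus differed less. Sec16a, which encodes a protein of endoplasmic reticulum exit sites, starts 479 bases from 0610009E02Rik and is read the opposite way. It fell to 2641 ± 397 normalized counts in the Sirt1 deleted group, against 3413 ± 355 in the control group (SD, n = 5 each, log2 difference -0.38, limma adjusted p = 0.0174), and stood at -0.06 after the correction. The next genes, Inpp5e (0.07, limma adjusted p = 0.348, corrected 0.15) and Pmpca (0.01, limma adjusted p = 0.848, corrected 0.06), did not pass. These were the tested genes within 50 kb, a window chosen after the values were seen.

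Per kilobase of transcript, Dtx1 and Notch1 had the highest levels of the 10 genes in each group, and the nuclear partners and Notch2 stood low. In the Sirt1 deleted group Dtx1 stood at 10145 ± 522 and Notch1 at 5716 ± 841 normalized counts per kilobase, followed by Nrarp (4182 ± 289) and Heyl (3675 ± 248). In the control group Dtx1 stood at 8779 ± 553 and Notch1 at 7097 ± 577, followed by Heyl (3795 ± 313) and Nrarp (3529 ± 306), whose ranges overlapped there. Notch3 came next, at 1410 ± 247 in the Sirt1 deleted group and 1806 ± 205 in the control group. After it came Hes1, at 1183 ± 89.8 in the Sirt1 deleted group and 1044 ± 122 in the control group. The ranges of Notch3 and Hes1 overlapped in the Sirt1 deleted group and not in the control group. Rbpj (479 ± 85.4), Maml1 (287 ± 29.4) and Notch2 (106 ± 15.2) stood lowest in the Sirt1 deleted group. In the control group Rbpj stood at 681 ± 76.0, Maml1 at 325 ± 16.8 and Notch2 at 139 ± 16.3, with ranges apart from each other. 0610009E02Rik followed Hes1 in the Sirt1 deleted group at 543 ± 557, with a range of 95.2 to 1495 that overlapped those of Notch3, Hes1, Rbpj, Maml1 and Notch2. It came last in the control group at 20.6 ± 3.80. Among 16504 genes with a known length, Dtx1 ranked 186 and Notch1 306. All these levels are means ± SD (n = 5 each) per kilobase of the longest annotated transcript.

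**Figure D3:**
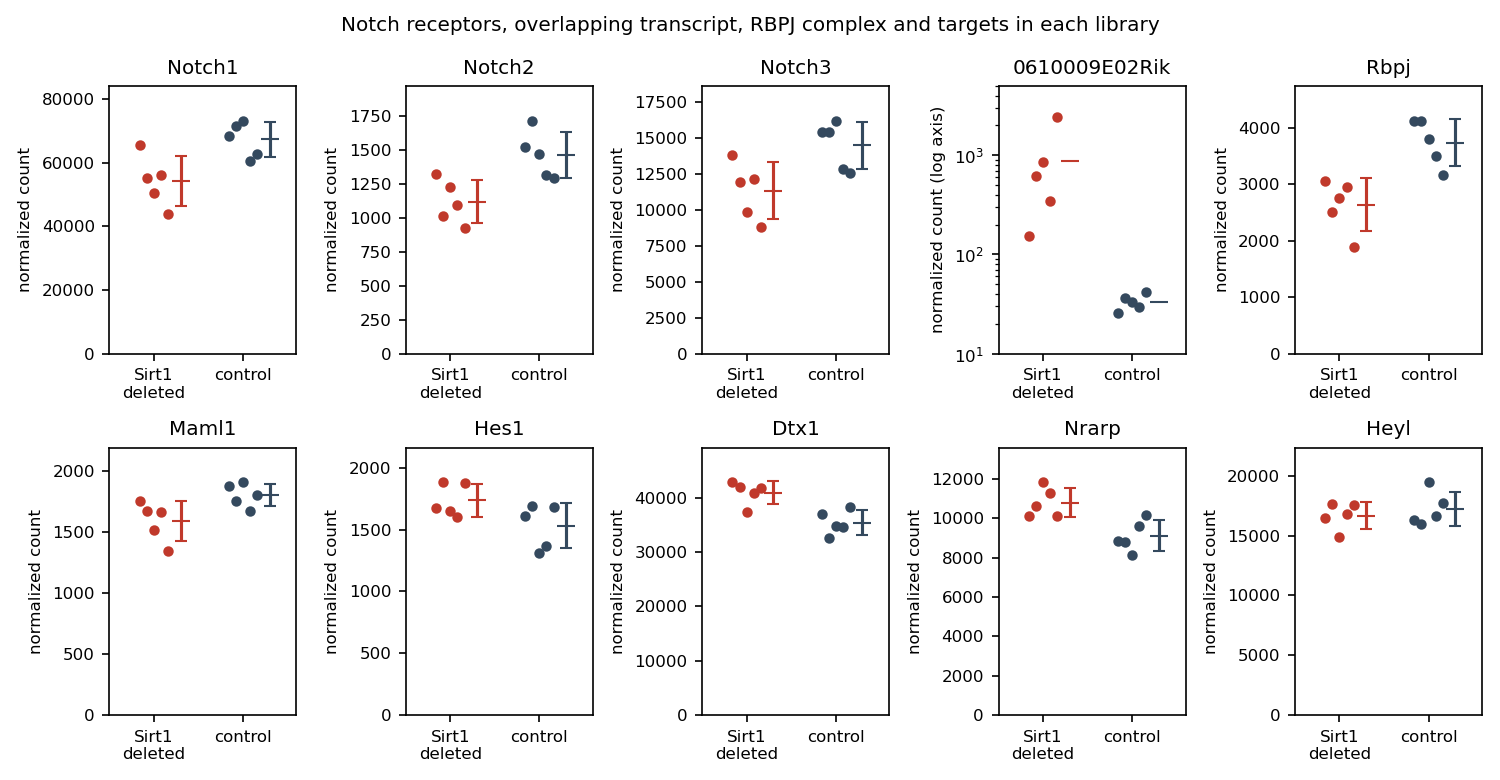
Normalized count of each of the 10 genes in the 5 Sirt1 deleted libraries (red, left) and the 5 control libraries (dark, right). Points are libraries and bars are means with SD, on axes from 0, except for 0610009E02Rik, which has a log axis and the mean alone. The groups do not overlap for 0610009E02Rik and Rbpj, and they overlap for the other 8.

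Of the 10 genes, 1 lay higher in every Sirt1 deleted library than in any control library (0610009E02Rik) and 1 lay lower in every one (Rbpj). The groups did not overlap for 16.5% of all tested genes, 8.28% in the higher direction and 8.18% in the lower. After the correction the count was 1 higher and 0 lower, where 9.81% of all genes did not overlap, 6.51% higher and 3.3% lower. The median log2 difference of the 10 genes was -0.11, against 0.00 for all tested genes. After the correction both medians were 0.00.

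The 3 receptors were lower in the Sirt1 deleted group in values as deposited and after the correction. With the length slope as a covariate they were higher by less than their errors. Notch1, the receptor activated in most T-ALL, held 65490.5, 55347, 50429, 56087 and 43797 normalized counts in Sirt1 deleted libraries 1 to 5 and 68438, 71696, 73154, 60673 and 62728 in control libraries 1 to 5. Of the Sirt1 deleted libraries, 4 lay below every control, and library 1 lay among the controls. The mean was 54230 ± 7981 in the Sirt1 deleted group and 67338 ± 5470 in the control group (SD, n = 5 each), the first 80.5% of the second, with a log2 difference of -0.32 (SE 0.0964). The correction left -0.06 (SE 0.0588), with 2 Sirt1 deleted libraries below every control.

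Notch3 (chromosome 17, 32120820 to 32166852, minus strand), a receptor that is itself a Notch target in T cells, held 13792, 11921, 9824, 12155 and 8814 normalized counts in the Sirt1 deleted libraries and 15380.2, 15420.1, 16167, 12849 and 12571 in the control libraries. Here too library 1 of the Sirt1 deleted group lay among the controls and the other 4 below them. The log2 difference was -0.37 (SE 0.114), and the correction left -0.18 (SE 0.0750). Notch2 (chromosome 3, 98013527 to 98150361, plus strand), the receptor needed for marginal zone B cells, held 1325, 1016, 1228, 1092 and 927 normalized counts in the Sirt1 deleted libraries. Its control libraries held 1522, 1713, 1469.7, 1316 and 1292, so that library 1 of the Sirt1 deleted group again lay among the controls. The log2 difference was -0.39 (SE 0.103) and the corrected one -0.07 (SE 0.0630). B cell markers had a median log2 difference of 0.38 over 9 tested, of which 3 rose and 0 fell. Macrophage markers had a median of -0.77 over 10 tested, of which 0 rose and 6 fell. Over all tested genes 14.5% rose and 17.5% fell. The part of these cells in the Notch2 values was not tested.

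Rbpj and Maml1 were also lower as deposited and corrected, Maml1 by less than its error after the correction. With the slope as a covariate both were slightly higher, Maml1 by less than its error. Rbpj (chromosome 5, 53466152 to 53657362, plus strand), which encodes the DNA-binding subunit through which all Notch receptors act, held 3061, 2507, 2750.2, 2951 and 1881 normalized counts in Sirt1 deleted libraries 1 to 5 and 4112, 4118, 3803, 3489 and 3152 in control libraries 1 to 5. All 5 Sirt1 deleted libraries lay below the lowest control. The mean was 2630.0 ± 469 in the Sirt1 deleted group and 3735 ± 417 in the control group (SD, n = 5 each), with a log2 difference of -0.52 (SE 0.121) and a corrected one of -0.25 (SE 0.0722). After the correction 4 of the 5 lay below every control. Maml1 (chromosome 11, 50255634 to 50292311, minus strand), the coactivator, held 1753, 1669, 1517, 1665 and 1341 normalized counts in the Sirt1 deleted libraries and 1870.0, 1753, 1903, 1671 and 1796 in the control libraries. Library 1 of the Sirt1 deleted group lay among the controls and the other 4 below them. The log2 difference was -0.18 (SE 0.0737), and -0.02 (SE 0.0537) after the correction.

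Of the 4 target genes, Nrarp, Dtx1 and Hes1 were higher in the Sirt1 deleted group in all 3 analyses, and Heyl changed sign between them. For Hes1 the difference was smaller than its error after the correction and with the slope as a covariate. Nrarp (chromosome 2, 25180758 to 25183339, plus strand), an ankyrin-repeat protein that feeds back on the Notch complex, held 10140.4, 10637, 11828, 11275 and 10108 normalized counts in Sirt1 deleted libraries 1 to 5 and 8854, 8801, 8126, 9617 and 10166 in control libraries 1 to 5. The groups overlapped through control library 5. Its log2 difference was 0.25 (SE 0.0679), and 0.20 (SE 0.0682) after the correction. Dtx1 (chromosome 5, 120680202 to 120711927, minus strand), a Deltex ubiquitin ligase, held 42812, 41879, 37393, 40792 and 41801 normalized counts in the Sirt1 deleted libraries. Its control libraries held 36922, 32531, 34769, 34603 and 38288, so that Sirt1 deleted library 3 lay among the controls and the other 4 above them. This gave a log2 difference of 0.21 (SE 0.0594) and a corrected one of 0.12 (SE 0.0465).

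Hes1 (chromosome 16, 30064384 to 30067796, plus strand), a transcriptional repressor and the classic Notch target of T-ALL, held 1673, 1881, 1653, 1600 and 1874 normalized counts in the Sirt1 deleted libraries and 1611, 1691, 1312, 1367 and 1680 in the control libraries. Libraries 2 and 5 of the Sirt1 deleted group lay above every control and the other 3 lay among the controls. The log2 difference was 0.18 (SE 0.0837), and the correction left 0.03 (SE 0.0772). Heyl (chromosome 4, 123233556 to 123249875, plus strand), a repressor of the same family, held 16509.6, 17669, 14860.0, 16790.2 and 17539 normalized counts in the Sirt1 deleted libraries and 16281, 15940.3, 19453, 16678 and 17728 in the control libraries. The groups overlapped, and the difference was smaller than its error (log2 -0.05, SE 0.0667, and 0.05, SE 0.0636, after the correction). Heyl and Notch3 are known from vessel walls too. Of the endothelial and mural markers, Cdh5, Kdr and Tek reached at most 11.7, 7.81 and 1.95 normalized counts in the Sirt1 deleted group and 19.4, 13.3 and 3.74 in the control group, while Pdgfrb held 19631 to 25002 in the Sirt1 deleted group and 22691 to 25573 in the control group and made up most of that list. Pecam1, an adhesion molecule of endothelium and of leukocytes, fell to 2068 to 2417 normalized counts in the Sirt1 deleted group, against 2432 to 3024 in the control group (log2 difference -0.28, limma adjusted p = 0.0116). Of the other members in the table, Col1a1 held 91.0 to 111 in the Sirt1 deleted group and 63.5 to 98.5 in the control group, Acta2 12.5 to 19.2 and Col3a1 5.86 to 22.3 in the Sirt1 deleted group, and Acta2 11.3 to 28.4 and Col3a1 3.64 to 11.4 in the control group.

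**Figure D4:**
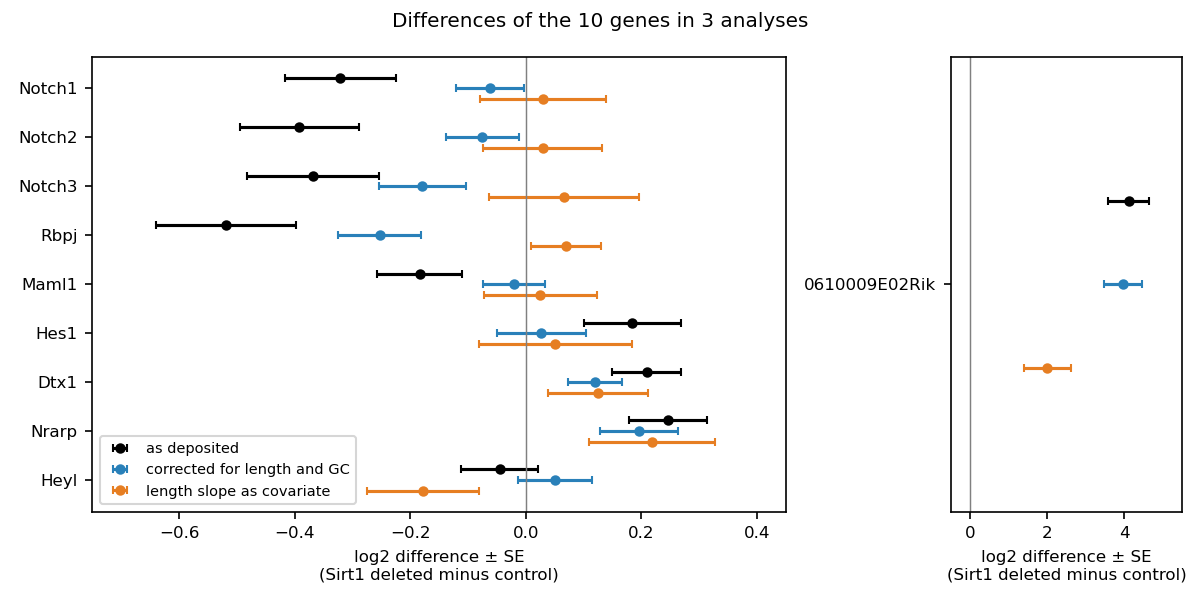
Log2 difference, Sirt1 deleted minus control, with its SE, for the 10 genes in values as deposited (black), after correction for transcript length and GC content (blue) and with the length slope of each library as a covariate (orange). 0610009E02Rik has its own axis. Notch1, Notch2 and Maml1 lie near 0 in blue, at -0.06, -0.07 and -0.02, Nrarp stays at 0.20, and the receptors, Rbpj and Maml1 lie right of 0 in orange.

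Including the length slope gave a difference of 0.03 for Notch1 (SE 0.109), 0.03 for Notch2 (SE 0.103) and 0.07 for Notch3 (SE 0.130). It gave 0.07 for Rbpj (SE 0.0605) and 0.03 for Maml1 (SE 0.0986). All have the opposite sign to the values as deposited, and all but that of Rbpj are smaller than their errors. The difference was 0.22 for Nrarp (SE 0.109), 0.13 for Dtx1 (SE 0.0861), 0.05 for Hes1 (SE 0.132) and -0.18 for Heyl (SE 0.0969). The slopes of the groups do not overlap, so that group and length trend can be separated only in part.

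Within the groups, Notch1 and Notch3 moved together from library to library. Deviations from the group means were compared over the 10 libraries with 10431 other genes of at least 100 normalized counts. Notch3 was the sixth most like Notch1 (Pearson r of 0.97), after Sipa1l3 (0.98), Parm1 (0.98), Tmem131 (0.98), Ano6 (0.97) and Hlcs (0.97). These 5 genes have transcripts of 4927 to 7713 bases. Maml1 (0.90, rank 200), Rbpj (0.83, rank 627) and Notch2 (0.75, rank 1329) came next among the 10 genes, so that the receptor Notch2 was less like Notch1 than either nuclear partner. Hes1 (-0.22), Dtx1 (0.03), Nrarp (-0.39) and Heyl (0.04) did not follow Notch1, and 0610009E02Rik ran against it (-0.85). 0610009E02Rik ran nearly as far against Maml1 (-0.84), Notch3 (-0.82) and Rbpj (-0.82), on other chromosomes, and less far against Notch2 (-0.60). Among 10431 genes ordered from most to least like 0610009E02Rik, Notch1 ranked 10057, so many genes ran against 0610009E02Rik more strongly. These values describe 10 libraries that share the length trend, and no test is given for them.

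The rest of the pathway was read from 80 further genes in 7 lists by role, of which 78 were in the table and 71 were tested. In limma, 6 rose (8.45%), 21 fell (29.6%) and 44 did not pass at an adjusted p of 0.05, where 32.0% of all tested genes were called, 14.5% higher and 17.5% lower. The median log2 difference was -0.09, against 0.00 for all tested genes. The 71 have longer transcripts than all tested genes, with a median of 3642 bases against 3001. After the correction 3 rose (4.23%) and 7 fell (9.86%), where 14.4% of all genes were called, 8.29% higher and 6.07% lower. Of the 27 genes called as deposited, 7 were still called, all lower, and the 3 that rose were called only after it. With the length slope in the model 0 of the 71 passed in limma (3 at an unadjusted p under 0.05), and without the 3 libraries of steepest slope 0 passed as well (22 unadjusted).

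**Figure D5:**
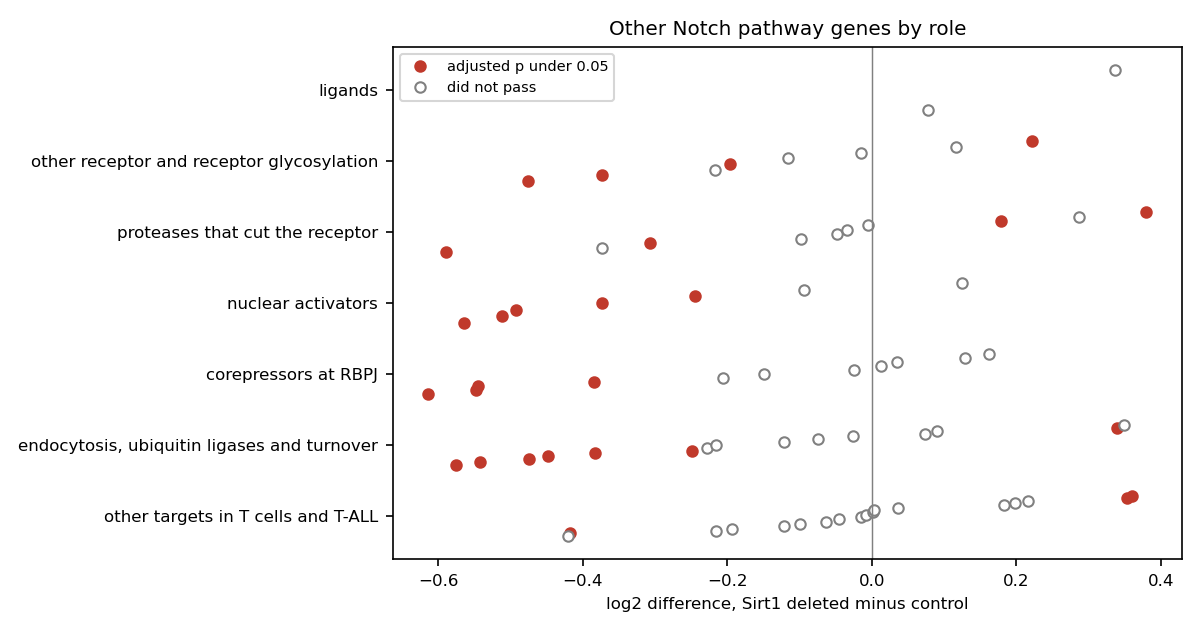
Log2 difference, Sirt1 deleted minus control, of the 71 other pathway genes tested, by role. Each point is 1 gene, filled red where the limma adjusted p was under 0.05. In the list of nuclear activators 5 of 7 are red and all 5 lie left of 0, where 17.5% of all tested genes were called lower. After the correction for length and GC content 1 of the 7 was called lower.

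Ligand genes had low values in these spleens. Of 8 ligands listed, 6 were in the table and 2 passed the filter. Jag2 held 132 ± 17.2 normalized counts in the Sirt1 deleted group and 125 ± 18.4 in the control group (SD, n = 5 each). Dll3 held 23.8 ± 7.83 in the Sirt1 deleted group and 19.1 ± 8.78 in the control group, and neither gene passed the test. Dll4, the main Notch1 ligand of the thymus, was not tested and averaged 6.59 ± 3.47 in the Sirt1 deleted group and 2.76 ± 2.16 in the control group.

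Among the receptor Notch4 and the enzymes that put sugars on Notch, 1 rose (12.5%), 3 fell (37.5%) and 4 did not pass. Of all tested genes, 14.5% rose and 17.5% fell. Notch4, a receptor of vessel endothelium, fell to 699 ± 147 normalized counts in the Sirt1 deleted group, against 960 ± 102 in the control group (log2 difference -0.48, limma adjusted p = 0.0169, corrected -0.36 and not called). Gxylt1, a xylosyltransferase, fell by 0.37 on the log2 scale and Pofut1, which adds O-fucose to Notch, by 0.20. Rfng, a Fringe glycosyltransferase, rose by 0.22. After the correction Gxylt1 stood at -0.06, Pofut1 at 0.02 and Rfng at 0.03, and none of the 4 was called.

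Of the 10 genes for the proteases that cut the receptor, 2 rose (20%), 2 fell (20%) and 6 did not pass. These shares were near those of all tested genes, 14.5% and 17.5%. Adam10, the main protease of the surface cut, fell to 3769 ± 865 normalized counts in the Sirt1 deleted group, against 5555 ± 531 in the control group (log2 difference -0.59, limma adjusted p = 0.0120), and was still called at -0.38. Adam17, a related protease, fell by 0.31 and stood at -0.12 after the correction, not called. The gamma-secretase subunit genes Psenen and Psen2 rose by 0.38 and 0.18 and stood at 0.08 and 0.06 after the correction.

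Of 7 nuclear activators, 5 fell (71.4%), 0 rose and 2 did not pass, where 17.5% of all tested genes fell and 14.5% rose. The median was -0.37 as deposited and -0.11 corrected. Maml3, a Mastermind-like coactivator, fell to 984 ± 117 normalized counts in the Sirt1 deleted group, against 1402 ± 160 in the control group (log2 difference -0.51, limma adjusted p = 0.00797), and was the one still called (-0.21). The acetyltransferase genes Crebbp, Ep300 and Kat2b fell by 0.56, 0.49 and 0.24, and stood at -0.22, -0.16 and -0.05 after the correction, not called. The 7 genes have a median transcript length of 6404 bases, the longest of the 7 lists.

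Of 11 corepressor genes, 4 fell (36.4%), 0 rose and 7 did not pass, where 17.5% of all tested genes fell and 14.5% rose. Spen, which encodes a corepressor that binds RBPJ, fell to 2707 ± 577 normalized counts in the Sirt1 deleted group, against 4104 ± 564 in the control group (log2 difference -0.61, limma adjusted p = 0.00883, corrected -0.34 and still called). Ncor1, a corepressor scaffold, fell by 0.55, the histone demethylase gene Kdm5a by 0.54 and L3mbtl3, which binds RBPJ, by 0.39. Of these, L3mbtl3 was also called after the correction, at -0.21, while Ncor1 (-0.19) and Kdm5a (-0.14) were not. Hdac2, a histone deacetylase gene named after its value was seen, stood at 0.13 as deposited and was called higher only after the correction (0.22, limma adjusted p = 0.0236). Of 15 tested genes of endocytosis, ubiquitin ligation and turnover, 1 rose (6.67%), 6 fell (40%) and 8 did not pass, beside the same background. The kinase gene Aak1 fell by 0.58, the ligase genes Mib1, Itch and Dtx4 by 0.54, 0.47 and 0.38, and Aak1 and Itch were also called after the correction, each at -0.21. Mib1 (-0.15) and Dtx4 (-0.20) were not.

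Of 18 other targets tested, 2 rose (11.1%), 1 fell (5.56%) and 15 did not pass, and the median was -0.01. Of all tested genes, 14.5% rose and 17.5% fell. Il2ra, which encodes CD25, fell to 27238 ± 3392 normalized counts in the Sirt1 deleted group, against 36208 ± 2387 in the control group (log2 difference -0.42, limma adjusted p = 0.00855), and was still called at -0.24. Every Sirt1 deleted library lay below every control. Ptcra, the pre-T cell receptor alpha chain, rose to 17725 ± 2741 in the Sirt1 deleted group, against 13731 ± 1269 in the control group (log2 difference 0.36, limma adjusted p = 0.0167). Ccnd3, the cyclin D3 gene, rose by 0.35. Neither was called after the correction, at 0.11 for Ptcra and 0.19 for Ccnd3. A pair of targets, named after their values were seen, was called only after it. Runx1, a transcription factor of blood development, stood at 0.00 as deposited and rose by 0.28 (limma adjusted p = 0.00735). Igf1r, a growth factor receptor, stood at -0.10 as deposited and, with the sign turned, at 0.27 after the correction (limma adjusted p = 0.0495). Myc, a direct NOTCH1 target in T-ALL that was named after its value was seen, stood at 0.20 and did not pass (limma adjusted p = 0.0535, corrected 0.14).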

How the data were processed

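The authors deposited 1 table of normalized counts, a signal per gene symbol and library, for 10 strand-specific libraries of total RNA from spleens lysed of red cells, per the labels' protocols. The submitters' processing notes name kallisto 0.44.0, DESeq without a version, and build mm10. The annotation, the gene filter and the use of strand are not stated. All 10 columns were used and 0 were left out. The values are not whole for most genes, so no count model was fitted.

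Genes with 10 or more in at least 5 libraries (13567) went, as log2(value + 1), into a limma-trend fit without covariates (R 4.3.3, limma 3.58.1), adjusted by Benjamini-Hochberg over all genes tested and called at 0.05, two-sided. Fold changes of low genes are understated on this scale. GENCODE M21 (GRCm38) gave positions and the longest protein-coding transcript, or else the longest one, for 16504 symbols. The correction subtracted, in each library, spline curves (5 degrees of freedom each) of log2 length and of GC content (13304 genes). It can also remove a true difference that follows length. The members and lists were chosen with earlier results of these data known. Beside the 10 genes and Sirt1, named genes are up to 4 called genes of smallest p in each role list and the 5 genes most like Notch1. Any other gene was named with its value already seen. In simulated libraries without a length trend limma recovered 43 of 50 genes changed 1.5-fold and 18 of 50 changed 1.25-fold, and called 11 of 13367 unchanged genes. The changed genes were drawn only from those averaging above about 50, with noise independent between genes. Recovery of lower genes was not measured. The labels pair no libraries, and whether recipients of the groups share a leukemia is not stated. Tables and figures used matplotlib 3.10.9, pandas 2.3.3 and numpy 2.4.6 under Python 3.11.15.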

Additional observations from a re-analysis of the deposited data

How the results depend on the processing

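The alternatives were pseudocounts of 0.5 and 5, no filter, a minimum of 50, TMM factors, quantile normalization, array weights, the length and GC correction, the length slope or B cell markers as a covariate, and the omission of each library. Omission of the 3 libraries of steepest length slope was added after the data were seen. Sirt1 kept its call in all 12 alternatives run for it (-0.50 to -0.35 without single libraries), most of which left out 1 library. The B cell covariate and the omission of the 3 steepest libraries were not among the 12. The slope covariate, also not among them, left -0.01. No paired analysis was possible because the labels number no library of 1 group with one of the other.

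Genes called, in all, higher and lower, were 1911, 1103 and 808 with the length and GC correction, 0, 0 and 0 with the slope covariate (589 at an unadjusted p under 0.05 in limma), 1, 0 and 1 with B cell markers as a covariate (2976 unadjusted), and 3, 1 and 2 without the 3 steepest libraries (3159 unadjusted). Without single libraries they ranged from 2200 to 4712, 922 to 2158 and 1278 to 2554, against 4344, 1973 and 2371 with all; the lowest came without control library 2 (2200), then without control library 1 (2335) and Sirt1 deleted library 2 (2711). Of the other pathway genes, 10, 3 and 7 were called with the correction, and 0, 0 and 0 with the slope covariate, with the B cell covariate (20 unadjusted) and without the steepest libraries (22 unadjusted); without single libraries the counts were 20 to 32, 3 to 8 and 17 to 25.

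Differences of the 10 genes had the opposite sign with the slope covariate for Notch1 (0.030), Notch2 (0.030), Notch3 (0.067), Rbpj (0.070) and Maml1 (0.026), and with the correction for Heyl (0.051). All of these but that of Rbpj were smaller than their errors. Of the other values of the 10 genes under these settings, 193 moved by less than the spread between replicates and 11 by more. Quantile normalization gave -0.51 for Notch1 and 0.04 for Dtx1. 0610009E02Rik stayed between 2.002 and 4.59. The cause of these shifts was not tested. A library holds about 29.8 to 54.4 reads of 0610009E02Rik in the control group, which limits how finely its control level can be read.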
